A study of Mus musculus with 2 samples.

Results

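The 9 genes Cdx1, Cdx2, Gata4, Gata5, Gata6, Onecut2, Klf4, Klf5 and Creb3l3 encode transcription factors that set intestinal identity and the regional character of enterocytes, the absorptive cells of the gut lining. They were chosen by name, as the non-control probes whose gene name in the scanner data is one of the 9, out of 12449 named genes measured on both arrays. Each gene had 1 probe, spotted once on each array, and all 9 probes were well above background on both, by a flag of the scanner software called the background flag here. Epithelial cells came from intestinal segments of wild-type male mice. The segments were kept for 2 h in 0.5 µM cholic acid, which is a bile acid made by the liver, or in vehicle, which held DMSO (0.05%) and ethanol (0.25%); the solvent of the cholic acid is not given. RNA of each condition was measured on 1 one-colour Agilent expression array. The age of the mice, their number, and the place along the intestine where the segments were cut are not given in the sources used here. The series concerns candidate genes through which bile acids could act by way of PPARα, a nuclear receptor that senses fatty acids.

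Gut epithelium is told apart from other endoderm by the caudal-type homeobox factors CDX1 and CDX2, which bind and open enhancers of intestinal genes. Along the gut, GATA4 marks the duodenum and jejunum in mouse and holds down the ileal programme there, while GATA6 is made along the whole length. KLF5 acts in dividing crypt cells and KLF4 in differentiated cells, including goblet cells.

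Onecut2 stood apart from the other 8 factors. Its processed signal was 294 on the cholic acid array, against 2070 on the vehicle array. After scaling, this is a log2 difference (cholic acid minus vehicle throughout) of -2.30, or 4.92-fold lower with cholic acid, and 6 of the 12449 measured genes had a lower value. The other 8 factors differed by less than 2-fold, between -0.50 for Klf4 and 0.34 for Cdx1. With 1 array per condition there is no spread between replicates, so no p-value or standard error can be given, and a gene was counted as different when it was at least 2-fold apart. By that limit 1 of the 9 factors was lower and 0 were higher. Among all measured genes 2.05% were at least 2-fold lower and 6.51% at least 2-fold higher. At a limit of 1.5-fold the counts were again 1 lower and 0 higher, where 7.75% of all genes were lower and 17.6% higher. At 3-fold they were also 1 and 0, where 0.329% of all genes were lower and 1.37% higher.

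**Figure D1:**
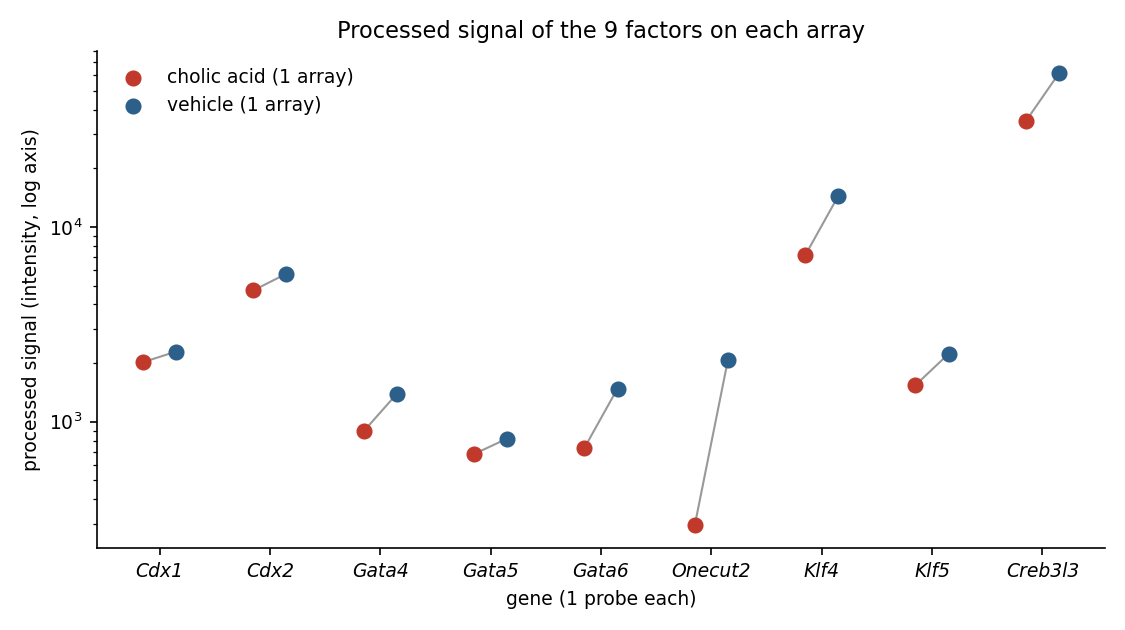
Processed signal (intensity, log axis) of the single probe of each of the 9 factors, with the cholic acid array left of the vehicle array and a line joining the values of a gene. Signals were not scaled between arrays here, and all 9 were lower on the cholic acid array; the steepest line is that of Onecut2, at 294 with cholic acid and 2070 with vehicle.

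Error on an array was small beside the difference of Onecut2. In the range of signals that the 9 probes covered, 95 other probes were spotted 10 times and measured on both arrays, and differences between 2 single spots of such a probe, 1 on each array, varied by an SD of 0.07 on the log2 scale (median over probes; highest 0.53). That figure describes spots of the same RNA and not animals or segments. The log2 differences of the 1000 genes nearest to Onecut2 in signal had a robust SD (scaled median absolute deviation) of 0.37. For the other 8 factors the same spread of neighbouring genes was 0.37 to 0.38.

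Before scaling, signals were lower overall on the cholic acid array: the 75th percentile of the probes above background was 740 there and 1060 on the vehicle array. Scaling on that percentile left the median of all genes at 0.08, with 57.0% of all genes above 0 and 43.0% below. Counts of genes above or below 0 in the lists are to be read beside these shares. Values of the factors are therefore also given by their percentile among all measured genes, which does not depend on where 0 is set.

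The labels describe epithelial cells, and all 9 listed epithelial markers (among them Vil1, Epcam and Krt20) were well above background on both arrays. Their median difference was -0.01, with 0 of 9 at least 2-fold apart, and lay at -0.32 in the authors' processed values and at -0.33 after quantile normalization. RNA of other cells was present as well. All 9 T cell markers were measured, and all lay above 0 with a median of 0.88. At least 2-fold higher were Cd8b1 (2.10-fold), Cd3d (2.13-fold), Gzmb (2.26-fold) and Cd2 (5.93-fold). Of these, Cd2 stayed past 2-fold in all 12 alternatives of the processing that give a difference. With the 75th percentile taken over every non-control probe Gzmb, Cd3d and Cd8b1 were under 2-fold, at 0.94, 0.86 and 0.84, and with median centring Cd3d and Cd8b1 were, at 0.95 and 0.93. Gzmb was past the limit in 10 of the 12, Cd3d in 8 and Cd8b1 in 4. Their summed unscaled signal was 21603 with cholic acid and 15745 with vehicle. Of 10 mesenchyme markers 8 were measured, all above 0 with a median of 1.12 and a summed signal of 3236 and 1949. The largest part of that sum with cholic acid was Thy1, with 1720 against 598 with vehicle. With vehicle it was Tagln, whose unscaled signal was lower with cholic acid, at 593 against 734. Thy1 (4.12-fold), Cnn1 (3.35-fold), Dcn (3.04-fold) and Vim (2.38-fold) were at least 2-fold higher, of which Thy1 was so in all 12 alternatives. Dcn and Vim lost the limit with scaling on spike-in controls, and Cnn1 there and with normexp background correction. Signals of Cnn1 were dim, at 36.9 with cholic acid and 15.8 with vehicle. Mouse T cells also express Thy1 and Vim, and their part in these values and in the summed signal was not tested. Of 7 B cell markers 5 were measured, with a median of 1.54 and a summed signal of 3211 and 3378. Most of that sum was Jchain, the joining chain of secreted antibodies, with 2190 and 3100 and a scaled difference of 0.02, and the other 4 summed to 1021 with cholic acid and 278 with vehicle. Ms4a1 passed the background flag with cholic acid but not with vehicle, so that it has only a bound (at least 49.9-fold higher). In that list Cd79b (6.84-fold), Pou2af1 (6.06-fold), Cd79a (2.91-fold) and Mzb1 (2.74-fold) were at least 2-fold higher, the last 2 not with the spike-in scaling. The mesenchyme genes Des and Myh11 stayed below the background flag on both arrays, as did the liver genes Alb and Ttr. Goblet cell markers had a median of 0.07 (6 measured of 7) and Paneth cell markers one of -0.25 (4 of 6). The Paneth product Pla2g2a passed with vehicle alone and was at least 19.3-fold lower with cholic acid. The 4 measured Paneth markers lay between -0.56 and 0.26, and why Pla2g2a stood apart from them was not tested. Endothelial, liver and pancreatic markers had 2 measured genes each, of which the pancreatic colipase Clps was 2.13-fold lower (under 2-fold in 2 of 12 alternatives), and the pancreatic lipase Pnlip had a bound of at least 3.87-fold lower. What these other cells contribute to the values of the factors was not tested, and in such mixed RNA fewer cells of a type and less RNA per cell cannot be told apart.

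**Figure D2:**
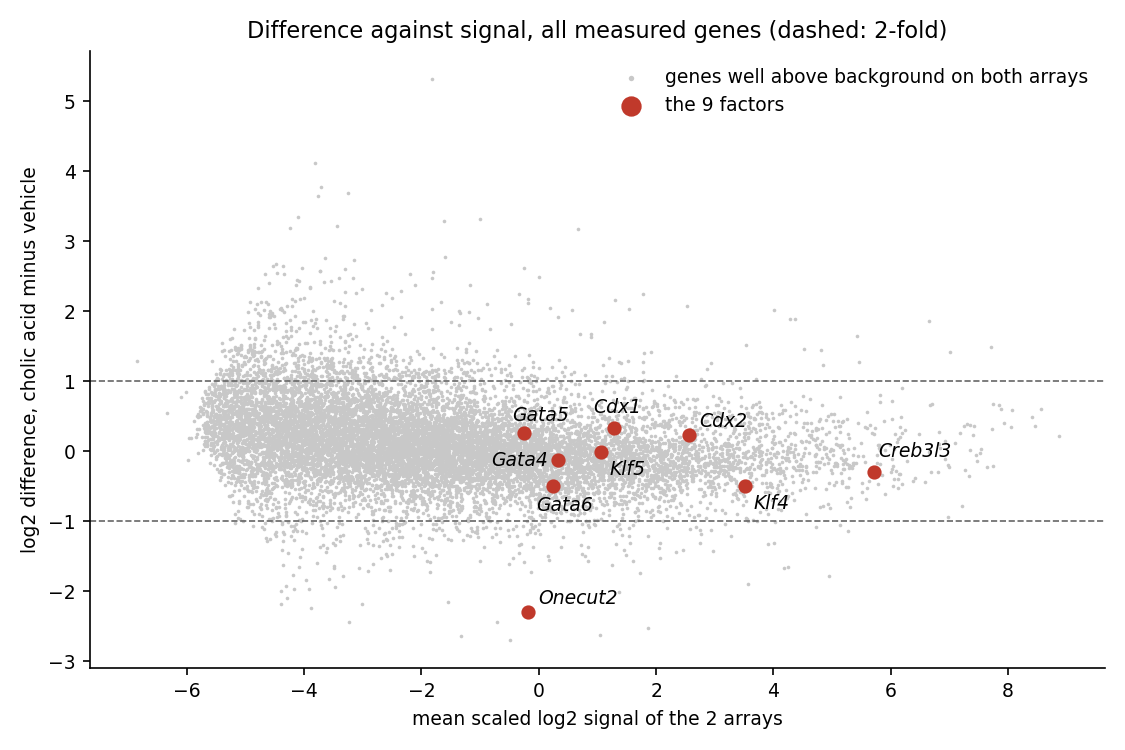
Log2 difference between cholic acid and vehicle (vertical axis) against the mean scaled log2 signal of the 2 arrays, for all 12449 measured genes (grey) and the 9 factors (red). Dashed lines mark 2-fold; 8 factors lie between them and Onecut2 lies at -2.30.

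The caudal-type factors were both slightly above the median of all genes. Cdx1 had a processed signal of 2020 with cholic acid and 2290 with vehicle, a scaled log2 difference of 0.34 and a place at percentile 69.4 of all genes. Cdx2, the factor whose loss turns gut epithelium towards a stomach-like or squamous fate in mouse, had signals of 4720 and 5750, a difference of 0.23 and percentile 62.2. Both differences are smaller than the spread of 0.37 among genes of like signal. The Cdx1 probe lies at chr18:61178558-61178617 and that of Cdx2 at chr5:148112547-148112606, both in mm9, the build of the scanner data, whose exon and UTR annotation was not used here.

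Of 12 listed genes that CDX2 is known to activate, 11 were measured, and 8 of them lay below 0. Their median was -0.44, against 0.08 for all genes. The peptide carrier Slc15a1 was at least 2-fold lower (3.35-fold), with signals of 1340 with cholic acid and 6430 with vehicle. At least 2-fold higher was Gcg, the preproglucagon gene of enteroendocrine cells (2.02-fold), with dim signals of 149 and 106. Gcg was past 2-fold in 4 of 12 alternatives, and at 0.79 with the percentile of every non-control probe and 0.87 with median centring. The disaccharidases Sis (-0.67) and Lct (-0.44), the alkaline phosphatase Alpi (-0.45), the iron oxidase Heph (-0.45) and the homeobox factor Isx (-0.48) differed by less than 2-fold, as did Cdh17, the intestinal cadherin (0.12), whose 2 probes lay at -0.33 and 0.57. Guca2a, which encodes the peptide guanylin, was at 0.28.

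The GATA factors, zinc finger proteins that bind GATA sequences, did not all lie on the same side of the median. Gata4 had signals of 893 with cholic acid and 1390 with vehicle, with a scaled log2 difference of -0.12 (percentile 32.8). Gata5 had signals of 682 and 819, a difference of 0.25 and percentile 63.7. Gata6 was the lowest of the 3, with signals of 733 and 1480, a difference of -0.50 and percentile 10.3. No GATA factor was 2-fold apart. The probes lie at chr14:63817858-63817917 for Gata4, chr2:180059867-180059926 for Gata5 and chr18:11085039-11085097 for Gata6 (mm9). Among the blood-lineage relatives, Gata1 and Gata2 were not well above background on either array, and Gata3, a factor of T cells and innate lymphoid cells, had signals of 61.3 and 52.4 and a difference of 0.74. Genes of like signal to Gata3 had a spread of 0.54. The T cell markers, given above, also lay above 0, and the part of T cells in the value of Gata3 was not tested.

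Onecut2 belongs to a family that carries a cut domain beside a homeodomain. In mouse it is made in the proximal small intestine. Its probe lies at chr18:64546262-64546321 (mm9). The relatives Onecut1, with 2 probes, and Onecut3 did not pass the background flag on either array, so Onecut2 was the single member of its family that could be compared.

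Genes that differ along the gut were set beside Gata4 and Onecut2. The gene lists, here and in the other paragraphs, were chosen with earlier results of these data known. Their counts and medians describe these data only. Of 14 listed genes that are high in the proximal small intestine, 13 were measured. Of these 12 lay below the median of all genes and 10 below 0, with Slc11a2 (0.002, its probes at -0.51 and 0.51) and Slc40a1 (0.02) between. Their median was -0.44, with 3 at least 2-fold lower. The folate carrier Slc46a1 was 5.78-fold lower, with signals of 1122 on the cholic acid array and 9298 on the vehicle array. Apolipoprotein Apoa4 (3.45-fold) and the cytochrome Cyp3a11 (2.79-fold) were lower too. Above the median of all genes lay S100g alone, a calcium-binding protein, which was 6.12-fold higher with signals of 1537 and 359. Cybrd1, the duodenal iron reductase, was well above background with vehicle alone and has only a bound, at least 1.74-fold lower.

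Of 8 listed ileal genes, which include those that GATA4 is known to repress in mouse jejunum, 7 were measured. Fabp6, which carries bile acids inside ileal enterocytes, was at a log2 difference of 5.32, with signals of 1320 with cholic acid and 47.3 with vehicle. Slc10a2, the apical bile acid uptake carrier, was 4.79-fold higher (265.7 and 79.4). The other 5 were less than 2-fold apart: the basolateral bile acid carrier subunits Slc51a (0.26) and Slc51b (0.51), the cobalamin receptor Cubn (-0.94), its partner Amn (-0.07) and the bile acid receptor Nr1h4 (-0.11). Fgf15, the ileal hormone, did not pass the background flag on either array. The list median was 0.26. With cholic acid S100g of the proximal list was higher, and Cubn, Amn and Nr1h4 of the ileal list lay below 0. Each array held its own segments and their position is not given, so position and treatment cannot be told apart.

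**Figure D3:**
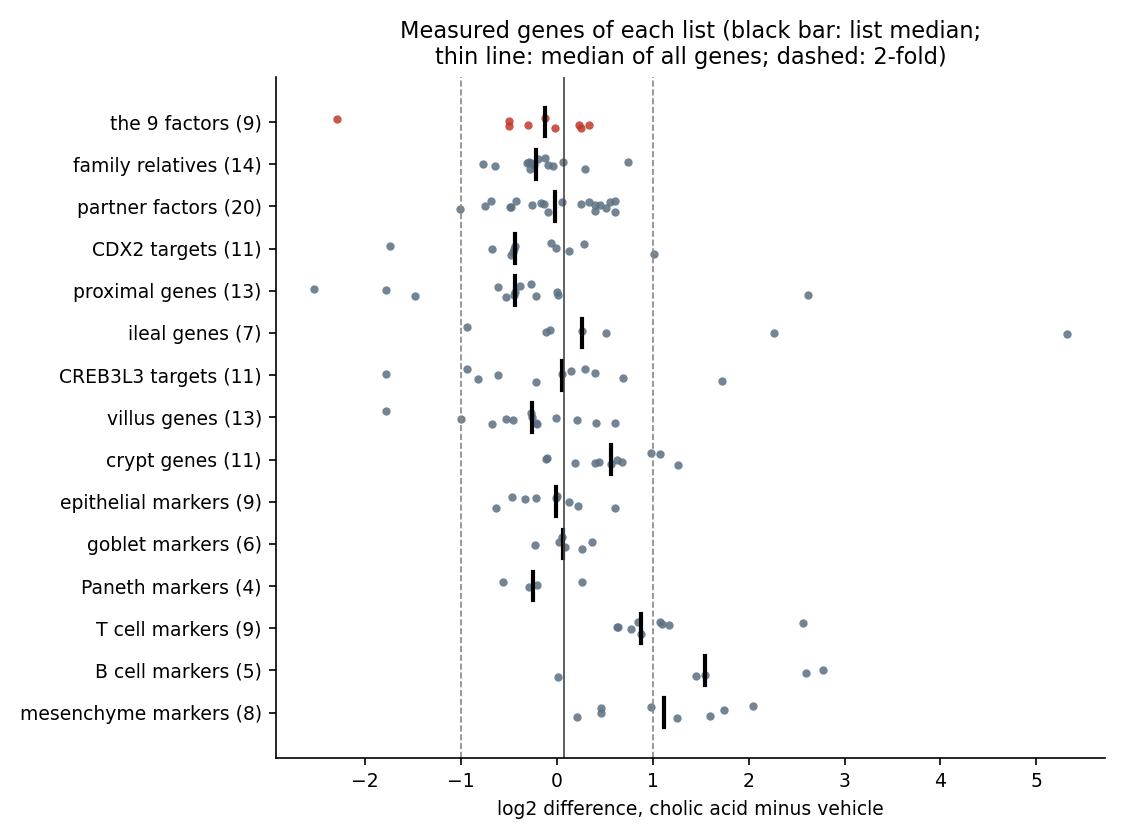
Log2 differences of the measured genes in each list, with the number measured in brackets; black bars are list medians, the thin line the median of all genes (0.08) and dashed lines 2-fold. The 9 factors have a median of -0.12 with Onecut2 at the far left, proximal genes a median of -0.44 and crypt genes one of 0.56.

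The Krüppel-like factors, zinc finger proteins that bind CACCC and GC-rich sequences, gave unequal values. Klf4 had a signal of 7130 with cholic acid and 14400 with vehicle. Its scaled difference was -0.50, at percentile 10.3, so that 1284 genes had a lower value. Klf5 had signals of 1540 and 2230, a scaled difference of -0.02 and percentile 41.7. The Klf4 probe lies at chr4:55540167-55540226. Positions of the Klf5 probe run from 99702656 to 99712388 on chromosome 14 (mm9), far longer than its 60 bases, so it crosses an exon junction and reads spliced RNA. It is shown here as the single probe of the set that spans an intron.
Klf5 probe: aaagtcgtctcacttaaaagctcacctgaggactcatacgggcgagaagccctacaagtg

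Most measured relatives of the factors lay below the median of all genes. The list of 25 family relatives had 14 measured, 12 of them below that median, and 0 at least 2-fold apart. Its own median was -0.22. Klf16 (-0.64) and Klf2, a factor of quiescent T cells and endothelium (-0.32), were at signals of 69.7 and 56.1 with cholic acid and 156 and 100 with vehicle. Klf3 (-0.28), Klf10 (-0.27), Klf9 (-0.24), Klf6 (-0.09) and Klf7 (0.07) were closer to the median. Klf11 was well above background with vehicle alone and was at least 2.36-fold lower with cholic acid.

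Crypt and villus genes were set beside Klf5 and Klf4. Of 12 crypt genes 11 were measured and 9 lay above 0, with a median of 0.56. That median was smaller in the authors' processed values (0.15), after quantile normalization (0.14) and after loess (0.18), and below 0 with the spike-in scaling (-0.33). The replication helicase subunit Mcm5 (2.40-fold) and the cyclin Ccnd1 (2.10-fold) were at least 2-fold higher, with signals of 174 and 242 with cholic acid and 104 and 165 with vehicle. Mcm5 was past 2-fold in 10 of 12 alternatives and Ccnd1 in 4. Ccnd1 lay at 0.84 with the percentile of every non-control probe and at 0.93 with median centring. Mki67, a proliferation marker, was at 0.63, while the stem cell gene Lgr5 was below the background flag on both. The 2 crypt genes below 0 were Pcna (-0.11), with signals of 960 with cholic acid and 1480 with vehicle, and Smoc2 (-0.12). Dividing lymphocytes also express Mcm5, Ccnd1 and Mki67, and the part of the T and B cell markers in these values was not tested. All 13 villus genes were measured, and 10 lay below 0, with a median of -0.25, which was -0.70 in the authors' processed values, -0.71 after quantile normalization and -0.10 after loess. The glucose carrier Slc2a2 (2.00-fold) and Apoa4 were at least 2-fold lower, Slc2a2 in 9 of 12 alternatives and Apoa4 in all 12. Fabp2 (0.61), Anpep (0.41) and the cell cycle inhibitor Cdkn1a (0.21), a target of KLF4, lay above 0.

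Creb3l3 encodes CREBH, a membrane-bound factor of the endoplasmic reticulum in liver and small intestine that is released by cleavage and activates apolipoprotein genes. Its signal was 34900 with cholic acid and 61400 with vehicle, a scaled difference of -0.30 at percentile 19.7. The probe lies at chr10:80547080-80547139 (mm9). Within the CREB3 family, Creb3l2 had the lowest value, -0.77, with signals of 570 and 1390. Creb3l1, Creb3l4 and Creb3 were at -0.04, -0.19 and 0.29.

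Of 17 listed targets of CREBH 11 were measured, 6 above and 5 below 0, with a median of 0.05. Apolipoproteins lay below 0, with Apoa4 3.45-fold lower at signals of 12300 with cholic acid and 60700 with vehicle. Apoc2, the cofactor of lipoprotein lipase (-0.94), Apoa1 (-0.61) and the lipid droplet protein Cidec (-0.82) were less than 2-fold lower. The desaturase Fads1 was 3.31-fold higher from dim signals of 41.1 and 17.8 (past 2-fold in 10 of 12 alternatives), and Pck1, the gluconeogenic carboxykinase, was at 0.40. The hepatic targets Apoa5, Fgf21, Crp, Apcs, Hamp and Elovl2 were not well above background on either array. Apoa4 and Apoa1 are also in the proximal list, and Apoa4 in the villus list. Lct and Heph are in both the CDX2 and the proximal list, and the median of -0.44 in both is the value of Lct. Sis, Alpi and Vil1 are in the CDX2 and villus lists, and Fabp1 and Ada in the proximal and villus lists. These lists are therefore not independent of each other.

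Partner factors that bind intestinal enhancers together with CDX2 and GATA4, or direct cell fate in the gut, split evenly around 0, with 10 of 20 measured genes above and 10 below and a median of -0.02. Hnf4g, the nuclear receptor HNF4γ of the intestinal epithelium, was 2.01-fold lower, with signals of 604 with cholic acid and 1740 with vehicle, just past the limit and under it with normexp (-0.95). Its paralog Hnf4a was at -0.17, with signals of 23100 and 37200. Maf (-0.75) rested on 2 probes at -1.34 and -0.15. Atoh1, which commits cells to the secretory lineage, was at -0.69, and the epithelial factors Ehf and Foxa3 were both at 0.61. Pdx1, which marks the proximal duodenum and pancreas, did not pass the background flag on either array, nor did Sox9 and Zfpm2.

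Sequences before the transcription start were examined in the 4 factors that the RefSeq promoter table (build GRCm38.p6) holds, Cdx2, Klf4, Gata5 and Creb3l3, the last with 2 starts. They are shown because they are regulatory sequence of the factors themselves and hold letters that other members of the set bind. In each window of 250 bases both strands were searched for AGATAA as letters bound by the GATA family, ATAAA for the CDX family, CACCC for Krüppel-like factors, ATTGAT or the variant ATCGAT for the ONECUT family, TGACGT for cyclic AMP response elements and AGGTCA for nuclear receptor half-sites. Capitals mark matches to the GATA, CDX and KLF letters, all windows lie on the minus strand, and sequences run 5′ to 3′ up to the base before the start.
Klf4, chr4:55532476-55532725: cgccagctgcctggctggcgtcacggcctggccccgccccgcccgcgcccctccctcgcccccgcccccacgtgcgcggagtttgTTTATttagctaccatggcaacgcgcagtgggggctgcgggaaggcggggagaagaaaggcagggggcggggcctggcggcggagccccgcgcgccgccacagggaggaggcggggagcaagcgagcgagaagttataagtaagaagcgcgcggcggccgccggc
Cdx2, chr5:147307250-147307499: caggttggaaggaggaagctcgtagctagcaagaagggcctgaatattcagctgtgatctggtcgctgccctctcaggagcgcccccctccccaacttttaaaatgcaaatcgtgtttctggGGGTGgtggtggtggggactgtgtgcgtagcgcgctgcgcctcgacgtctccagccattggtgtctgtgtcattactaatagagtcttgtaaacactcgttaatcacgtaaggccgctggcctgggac
Gata5, chr2:180334680-180334929: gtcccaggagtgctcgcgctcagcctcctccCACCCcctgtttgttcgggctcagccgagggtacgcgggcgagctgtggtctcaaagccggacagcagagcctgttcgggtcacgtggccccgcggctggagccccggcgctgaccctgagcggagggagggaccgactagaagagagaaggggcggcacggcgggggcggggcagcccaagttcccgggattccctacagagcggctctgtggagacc
Creb3l3, chr10:81092592-81092841: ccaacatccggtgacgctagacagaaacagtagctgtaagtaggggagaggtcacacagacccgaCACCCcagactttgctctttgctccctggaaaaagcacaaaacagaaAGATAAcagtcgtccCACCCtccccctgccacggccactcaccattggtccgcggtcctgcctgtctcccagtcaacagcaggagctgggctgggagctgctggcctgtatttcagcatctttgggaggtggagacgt

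In the Klf4 window the CDX letters began 165 bases before the start. KLF letters began 128 bases before the start of Cdx2 and 219 before that of Gata5. The Creb3l3 window shown held GATA letters at 138 bases, KLF letters at 185 and 123 bases and a nuclear receptor half-site, not capitalised, at 202 bases before the start. The window at the other Creb3l3 start held KLF letters alone, at 111 bases. Such short runs are common. Of 32851 promoter windows of the same length 52.0% held the KLF letters, 37.3% the CDX letters, 14.0% the half-site, 9.99% the GATA letters, 6.72% ATTGAT, 0.728% ATCGAT and 6.47% TGACGT. No ONECUT letters were found in these windows, which says only that those letters are not there.

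**Figure D4:**
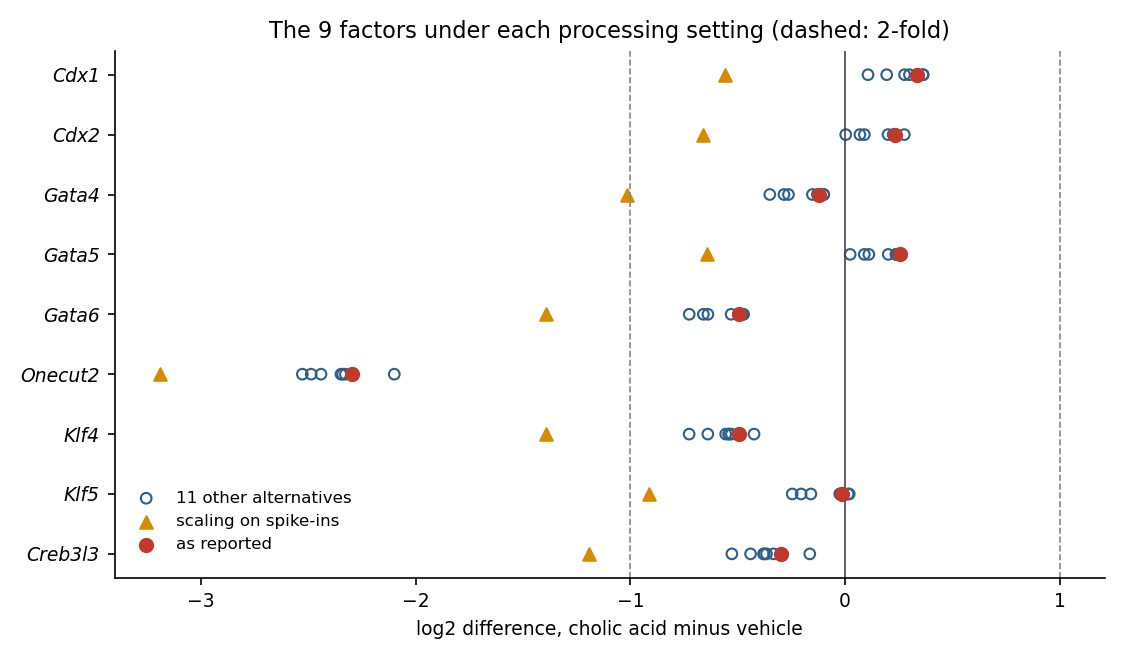
Log2 difference of each factor as reported (red) and under 12 alternative settings of the processing (open circles; triangles for scaling on the spike-in controls), with dashed lines at 2-fold. Onecut2 lies between -3.19 and -2.10 in all 12, and the spike-in scaling moves every factor to lower values by the same amount.

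The position of 0 matters for the factors close to it. With scaling on the spike-in controls, an alternative added after the data were seen, the median of all genes was -0.82 and all 9 factors lay below 0, with 5 of them at least 2-fold lower. In the other 11 alternatives Cdx1, Cdx2 and Gata5 lay above 0, and in all 12 Gata4, Gata6, Onecut2, Klf4 and Creb3l3 lay below 0. Those that change the filter, keep flagged spots or take the brightest probe leave every factor at its reported value.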

How the data were processed

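One array per condition was compared. The deposited scanner files hold processed intensities of Agilent Feature Extraction (version 10.7.1.1 per the file headers, 9.5.1.1 per the submitters' processing notes), background-subtracted and detrended within each array. A second deposited table gives the authors' own intensities, quantile-normalized between arrays as its values show, and served as an alternative.

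Spots flagged as outliers (124 on the vehicle and 119 on the cholic acid array) were left out, none was saturated, and log2 signals were averaged per probe. As the background flag was passed on both arrays by 40.6% of 55681 probes, each array's 75th percentile over those probes was subtracted. Genes were named by accession, symbol or synonym in a RefSeq table (GRCm38.p6), which named 27235, 3581 and 560 probes. A gene's value is the mean over those of its probes that passed on both arrays. Where a gene passed on 1 array, its bound compares that log2 signal with the dim signal, or with the lowest passing signal of the dim array if that is higher. limma 3.58.1 gave normexp, quantile and loess values. The calculation recovered changes well past 2-fold in data simulated from the vehicle array with small spot noise. That checks the calculation alone, because the simulated arrays differed otherwise only by a scaling. With 1 array per group no test was possible, and the number of arrays limits the precision.

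The members and gene lists were chosen with earlier results of these data known. All 9 members are named. From the other lists the text names genes at least 2-fold apart and otherwise up to 4 with the largest difference. Further list genes are cited as examples, chosen after their values were seen. Some genes of the lists are not reported here.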

Additional observations from a re-analysis of the deposited data

How the results depend on the processing

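The count of factors at least 2-fold lower (1, Onecut2) and higher (0) was the same in 13 of 14 alternatives: the 75th percentile of every non-control probe, median centring, quantile normalization, loess, normexp, the authors' processed values, no filter and a stricter filter on dim probes, keeping flagged spots, the brightest probe per gene, 1.5-fold and 3-fold limits, and correction for probe GC content. With scaling on the spike-ins it was 5 lower (Gata4, Gata6, Onecut2, Klf4 and Creb3l3) and 0 higher, because that scaling shifts every gene alike. These alternatives are not all separate checks. With no filter, a stricter filter, flagged spots kept or the brightest probe, every factor kept its reported value, as each has 1 probe. The authors' values are quantile-normalized, so they lie close to the quantile setting. The spike-in and GC alternatives were added after the data were seen. The median of all genes, 0.08, was shifted by -0.23, -0.14, -0.15, -0.13, 0.10 and -0.15 in the first 6 of these, by 0.30 without a filter, by -0.13 with the GC correction and by -0.90 with the spike-ins. Higher genes made up 76.1% of all genes at least 2-fold apart (811 higher and 255 lower), against 43.5% (408 and 531), 56.9% (521 and 394), 51.0% (427 and 411), 53.6% (449 and 389), 71.6% (260 and 103) and 51.1% (432 and 414) in those 6. They made up 82.3% without a filter (2700 and 580), 59.4% with the GC correction (545 and 373) and 2.40% with the spike-ins (104 and 4236). Set against the median over all genes of each setting, Gata4, Gata6, Onecut2, Klf4 and Creb3l3 were lower in 12 of 12 alternatives that give a difference, Cdx1, Cdx2 and Gata5 higher in 11 of 12, and Klf5 lower in 9. The percentile of every non-control probe, median centring and the spike-ins shift all genes alike, so they could not change these relative values. Filters, flagged spots and the brightest probe move the median alone, and without a filter Cdx1, Cdx2 and Gata5 were lower. Over the 11 alternatives other than the spike-ins, list medians ranged from -0.35 to -0.10 for the factors, -0.45 to 0.00 for family relatives, -0.25 to 0.14 for partner factors, -0.67 to -0.29 for CDX2 targets, -0.68 to -0.39 for proximal, 0.03 to 0.39 for ileal and -0.18 to 0.40 for CREBH target genes. They ranged from 0.14 to 0.56 for crypt and -0.71 to -0.10 for villus genes, and from -0.33 to 0.08 for epithelial, -0.16 to 0.18 for goblet, -0.48 to -0.23 for Paneth, 0.65 to 1.07 for T cell, 1.05 to 2.60 for B cell and 0.78 to 1.12 for mesenchyme markers. The spike-in scaling put the last 3 at -0.02, 0.64 and 0.22. The cause was not tested. No paired analysis was possible because each group has 1 sample.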

Other observations

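Genes next to the factors on the chromosome were also read. The nearest named gene measured on both arrays within 100 kb of each factor's probe was found for 7 of the 9, all but Klf4 and Klf5. Fech, the last enzyme of haem synthesis, lies 70.7 kb from the Onecut2 probe and had signals of 806 with cholic acid and 1130 with vehicle, a log2 difference of 0.03 against -2.30 for Onecut2. Gata6os, the noncoding RNA gene beside Gata6, lies 35.95 kb away and had signals of 103 and 173, a difference of -0.23 against -0.50 for Gata6. Plut, the noncoding gene near Pdx1 and 72.4 kb from the Cdx2 probe, had signals of 709 and 1300 and a difference of -0.36, on the other side of 0 from Cdx2 (0.23). Fdft1, the squalene synthase gene, was at 0.05 next to Gata4 (-0.12), and Cables2 at -0.13 next to Gata5 (0.25). Thop1, next to Creb3l3, and Pdgfrb, next to Cdx1, were dim, with signals of 20.0 and 19.4 with cholic acid and 17.5 and 17.7 with vehicle.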
